A study of Saccharomyces cerevisiae with 22 samples.

Results

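The heat-shock genes described here are the 10 yeast genes HSC82, HSP82, HSP104, HSP78, HSP60, HSP10, HSP26, HSP42, HSP12 and HSP30, located by symbol among the 6002 nuclear protein-coding genes of the RefSeq annotation of sacCer3. For each gene, every listed Sus1 peak was taken whose summit lay between 500 bp before the start codon and 150 bp after the stop codon. Sus1, a subunit that the histone-modifying complexes SAGA and SLIK share with the mRNA export complex TREX-2, carried a MYC tag and was mapped by ChIP-exo, in which exonuclease digestion of the bound DNA stops at the cross-link. The cells were BY4741 wild type (WT), a strain that the sample labels call an SPT7 deletion and the study names spt7-1180, a truncation (here spt7), and a strain without SPT8 (spt8Δ), all expressing tagged Sus1. Each strain was grown in YPD at 25 °C to mid-log phase and fixed either without heat shock or after 15 min at 37 °C, and the heat-shocked cells were returned to 25 °C for cross-linking. The labels name 3 replicates of each of these 6 conditions, whereas the study describes a smaller number of biological replicates. The values below come from 1 peak list per condition. There is thus no error between replicates, no test was possible, and differences are given as descriptions of the lists. The part of the signal that does not need the tag was not tested, since the 4 libraries without a tag were left out.

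The 6 lists hold between 16593 and 20179 peaks. Fold enrichment is the authors' ratio of the reads at a summit over a background in its own list, and its median ranged from 2.33 to 3.49. At many summits of these genes this background was the lowest of the list, and at others it was higher. The lowest background, solved from the fold enrichment and the p-value of each peak, was 10.8, 22.2 and 7.99 reads at 25 °C and 5.98, 36.3 and 28.8 reads at 37 °C in WT, spt7 and spt8Δ. The heat-shock list thus had the lower background in WT and the higher in both mutants, and ratios were not subtracted between lists. Peaks of 200 bp or wider made up 2.48, 3.73 and 1.99% of the lists at 25 °C and 1.75, 5.33 and 4.79% at 37 °C. Of the genes looked at as a check of the strain labels, SPT8, MET17 and URA3 had no coding summit in any list. LEU2 had 1 in spt8Δ at 25 °C. The study lists LEU2, URA3 and MET17 (as MET15) as deleted in every strain, and SPT8 had no summit in WT either. The check thus does not separate the strains, and the LEU2 summit falls in a gene listed as deleted.

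Heat-shock proteins hold other proteins in a folded or foldable state. Hsp82 and its constitutively made copy Hsc82 are the yeast Hsp90 chaperones, Hsp104 and its mitochondrial relative Hsp78 pull proteins out of aggregates, and Hsp60 with its lid Hsp10 forms the folding chamber of mitochondria. Hsp26 and Hsp42 are small heat-shock proteins that bind unfolding proteins, while Hsp12 and Hsp30 are membrane-associated stress proteins. The transcription factor Hsf1 binds heat shock elements (HSE), built from alternating GAA and TTC units, and Msn2 and Msn4 bind the stress response element (STRE), AGGGG.

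The coding regions of most of these genes were more densely occupied by Sus1 peaks after heat shock. The median share of the coding region covered by peaks over the 10 genes was 20.5% in WT at 25 °C and 35.4% at 37 °C. In spt7 it was 36.2 and 68.8%, and 24.5 and 64.7% were covered in spt8Δ. Over all genes the median share stayed between 9.49 and 13.5% in the 6 lists, and the median change of a gene with heat was 0 percentage points in each strain. The share was higher at 37 °C by 20 points or more in every strain in 5 of the 10 genes, HSP82, HSC82, HSP104, HSP78 and HSP42, against 30 of 6002 genes, or 0.5%. Among genes with at least 1000 bp of coding sequence it was 5 of 6, against 13 of 3592, or 0.362%. A higher share of any size in every strain was found in 6 of the 10 genes, the same 5 and HSP30, against 13.9% of all genes. Coverage and the limit of 20 points were chosen after the peaks of these genes had been seen. With only the 5000 strongest peaks of each list, HSP104 and HSC82 passed the limit and the median change over the 10 genes in WT was -1.72 points, and with a fold enrichment of at least 3 HSP104 alone passed.

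**Figure D1:**
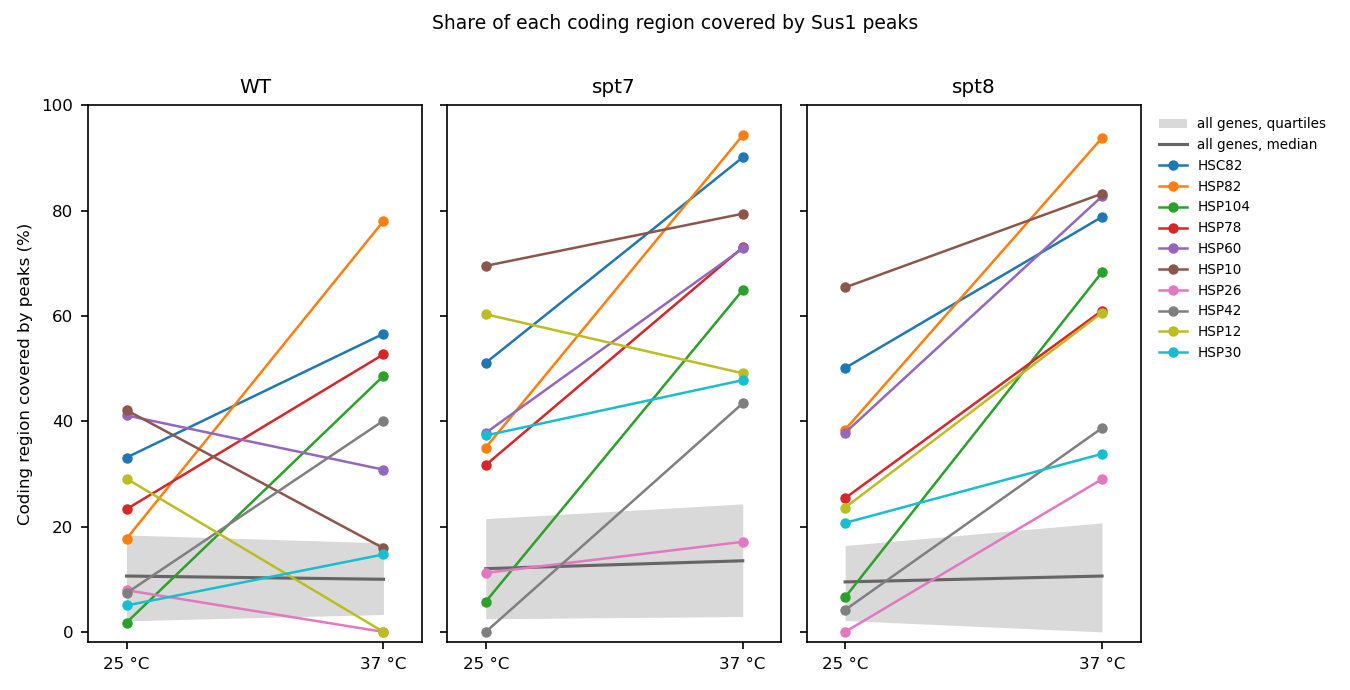
Share of each coding region covered by Sus1 peaks (y axis, percent) at 25 and 37 °C in WT, spt7 and spt8Δ. Coloured points and lines are the 10 heat-shock genes, the grey line is the median and the band the middle quartiles of all 6002 genes. In both mutants at 37 °C the members lie between 17.1 and 94.3%, all above the median of all genes, whereas in WT HSP26 and HSP12 are at 0%.

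After heat shock, the Hsp90 gene HSP82 had the strongest coding summit of the 10 genes in every strain, and HSC82 came next in both mutants, while in WT HSP78 stood between them. In WT, 17.7% of HSP82 was covered at 25 °C and 78.0% at 37 °C. The shares were 35.0 and 94.3% in spt7, and 38.4 and 93.8% in spt8Δ. After heat shock HSP82 was thus nearly filled with peaks in both mutants. When all genes were ordered by their strongest coding summit, HSP82 stood at place 1128 in WT, 184 in spt7 and 90 in spt8Δ at 25 °C. At 37 °C it stood at place 3, 4 and 1, with fold enrichments of 13.8, 9.26 and 12.3. HSC82 moved in the same direction, from place 1583, 40 and 497 at 25 °C to place 55, 8 and 2 at 37 °C. Its covered share was 33.1, 51.1 and 50.1% at 25 °C and 56.6, 90.1 and 78.8% at 37 °C in WT, spt7 and spt8Δ. The high place of both genes in all 3 heat-shock lists is a rank within each list and does not depend on comparing ratios between lists.

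The number of summits in the windows of the Hsp90 genes did not follow coverage. HSP82 had 5 summits in WT at 25 °C and 9 at 37 °C, but 9 and 3 in spt7, and 10 and 4 in spt8Δ. For HSC82 the counts were 6 and 9 in WT, 9 and 5 in spt7, while spt8Δ had 13 and 7. The mutant heat-shock lists held fewer and wider peaks there. In HSP82 a single peak of 1391 bp was listed in spt7 and one of 1629 bp in spt8Δ, the widest peak of that whole list, while the widest peak on the gene in WT at 37 °C was 539 bp. The summit of the peak of 1391 bp had a fold enrichment of only 1.99 (rank 15375 of 20179), with 333 reads over a background of 167. The value of 9.26 in spt7 belongs to another peak, of 704 bp. Fewer summits thus went with a larger covered share on these genes in the mutants.

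HSC82 and HSP82 are 92.4% identical over 2115 aligned coding bases, with a longest identical run of 113 bp, and 29.2% of the alignment lies in identical runs of 36 bp or more. How reads that match both copies were placed is not given in the sources used here. The stretches around the strongest coding summits of WT at 37 °C show how far the copies can be told apart. The first 2 lines are the 80 bases around the HSC82 summit at position 1426 from the start codon, at chr13:633740-633819 on the plus strand, and the HSP82 bases aligned with them, at chr16:97149-97228 on the minus strand. The last 2 lines are the bases around the HSP82 summit at position 1319, at chr16:97268-97347 on the minus strand, and those of HSC82, at chr13:633621-633700 on the plus strand. Capitals mark the bases that differ.
HSC82 at its summit: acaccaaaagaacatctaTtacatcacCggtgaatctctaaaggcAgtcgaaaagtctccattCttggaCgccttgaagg
HSP82 aligned: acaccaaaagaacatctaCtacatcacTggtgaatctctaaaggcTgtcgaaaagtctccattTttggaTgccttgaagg
HSP82 at its summit: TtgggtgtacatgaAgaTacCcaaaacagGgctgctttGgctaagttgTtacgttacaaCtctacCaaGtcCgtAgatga
HSC82 aligned: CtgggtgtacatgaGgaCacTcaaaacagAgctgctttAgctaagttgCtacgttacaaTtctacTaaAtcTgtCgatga

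The copies differ at 5 of the 80 bases around the HSC82 summit and at 12 of the 80 around the HSP82 summit. Of the 39 coding summits of HSC82 over the 6 lists, 1 had no difference from HSP82 within 50 bases, and the median was 4 differences. The 34 coding summits of HSP82 had a median of 5 differences and at least 1. In each gene, 8 of these summits lay within 30 bp of a summit of the other copy in the same list. How many would do so by spacing alone was not computed. Part of the signal on either gene may be reads of its copy, which was not tested.

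Upstream of the Hsp90 genes the lists differed. HSP82 had upstream summits in WT at 37 °C, at positions -500 and -83, in spt7 at 25 °C, at -416 and -77, and in spt8Δ at -84 at 25 °C and -109 at 37 °C. No upstream summit was listed in WT at 25 °C or in spt7 at 37 °C, although in the latter a peak with its summit inside the coding region reached over the start codon. The summits between -109 and -77 form 1 site shared by 4 lists. HSC82 had 1 upstream summit in WT at 37 °C (-40), in spt7 at 25 °C (-370) and 37 °C (-130) and in spt8Δ at 37 °C (-131), and 3 in spt8Δ at 25 °C.

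**Figure D2:**
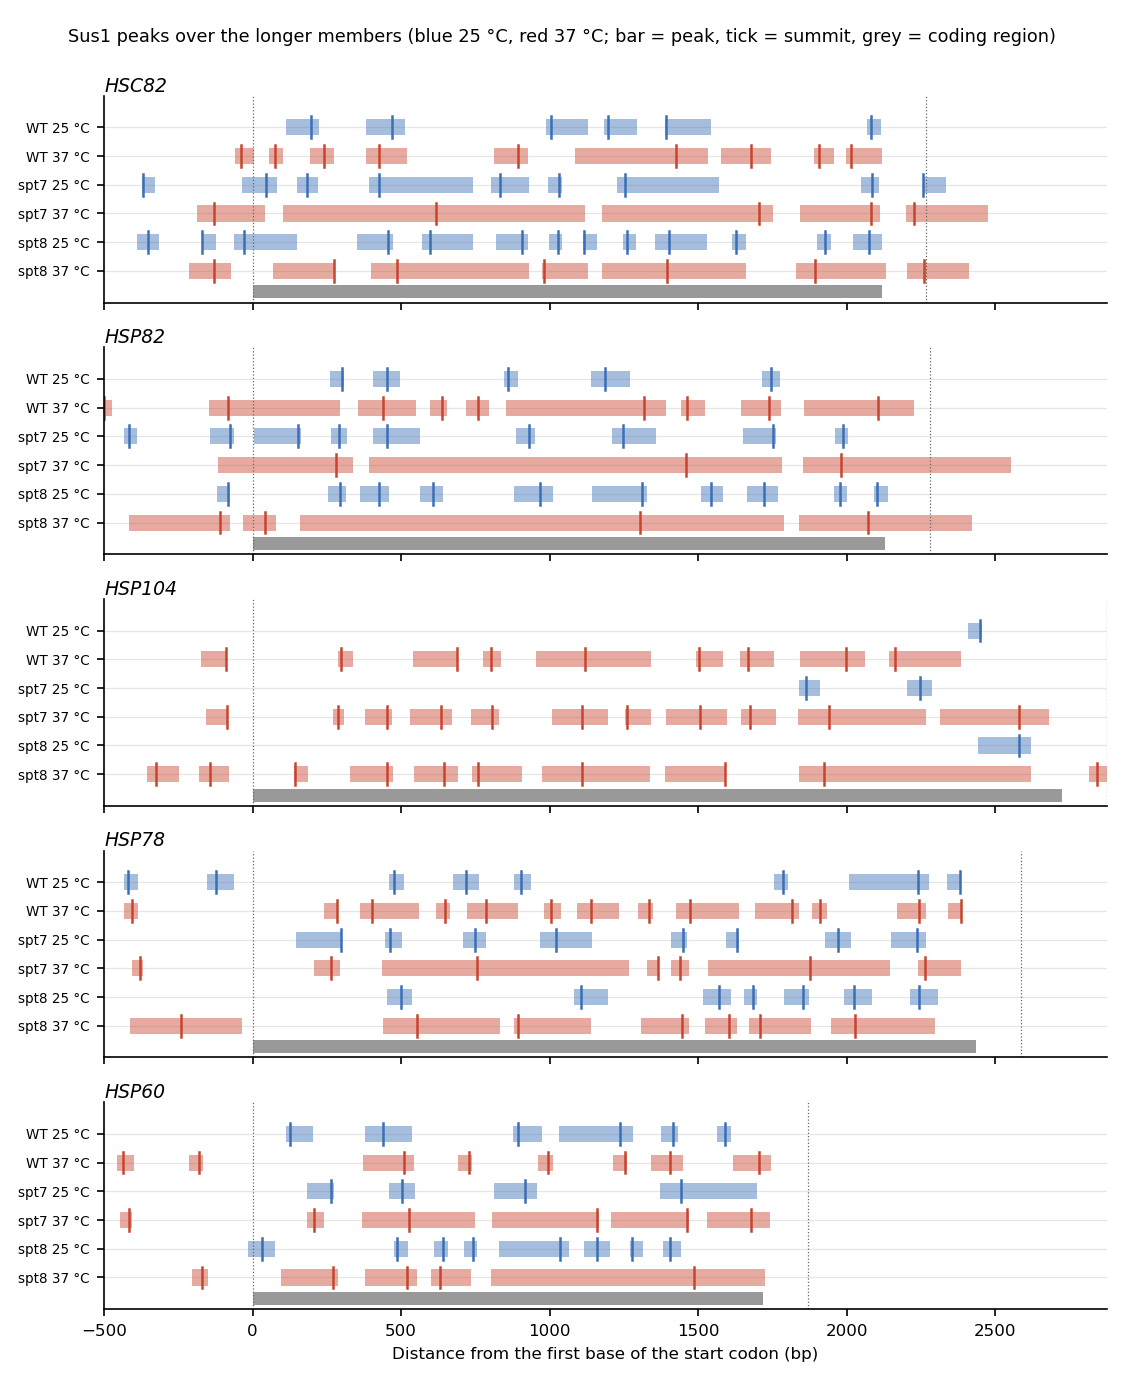
Sus1 peaks over HSC82, HSP82, HSP104, HSP78 and HSP60 in the 6 lists (rows) against the distance from the start codon (x axis, bp). Bars are peaks whose summit lies in the gene window, ticks are summits, blue is 25 °C and red 37 °C, the grey box is the coding region and dotted lines mark the start codon and the end of the window. HSP104 is nearly empty in the 3 blue rows, with 1 or 2 summits, and holds 9 to 11 in the red rows.

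HSP104, the cytosolic disaggregase, showed the largest difference in summit counts between temperatures in every strain. At 25 °C its window held 1 summit in WT, 2 in spt7 and 1 in spt8Δ. At 37 °C it held 9, 11 and 10. It was the 1 gene of 6002 (0.0167%) with at least 8 further summits at 37 °C in every strain, a limit chosen after seeing these counts. The few summits at 25 °C all lay far inside the gene, at 2451 in WT, at 1863 and 2248 in spt7 and at 2582 in spt8Δ, where the last was strong (fold enrichment 5.95, rank 839 of 16593). The covered share of its coding region went from 1.76 to 48.6% in WT, from 5.76 to 64.9% in spt7 and from 6.56 to 68.3% in spt8Δ. At least as large a difference was found in 18, 25 and 12 of the 6002 genes, HSP104 included. With the 5000 strongest peaks the differences in WT, spt7 and spt8Δ were 24.2, 41.3 and 35.8 points, and with a fold enrichment of at least 3 they were 41.1, 37.0 and 29.7 points.

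Some HSP104 summits of the heat-shock lists fell into shared sites. WT and spt7 at 37 °C shared 6 sites. A site is a chain of summits of the 6 lists in which neighbours lie no more than 30 bp apart. Its ends can thus lie further apart. The lists of spt7 and spt8Δ at 37 °C shared 4 sites, and those of WT and spt8Δ shared 1. These counts were not set beside those of other genes. No site of HSP104 was shared by any of the 25 °C lists with each other, but these lists held few summits there. The site at positions 1109 to 1120 was found in all 3 heat-shock lists and in no list at 25 °C. It was the only such site among the 160 member sites, and its share of 0.625% was close to the 0.531% over all genes. Its 80 bases, at chr12:89697-89776 on the plus strand, are printed below with the stretch from the first to the last summit in capitals. They lie inside the coding region.
HSP104 site: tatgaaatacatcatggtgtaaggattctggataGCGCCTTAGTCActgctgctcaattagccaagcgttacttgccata

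HSP104 was also free of upstream summits at 25 °C in every strain. At 37 °C they were listed at -91 in WT, at -88 in spt7, and at -325 and -144 in spt8Δ. Their fold enrichments of 3.39, 1.69, 2.22 and 1.65 were modest, with ranks of 9501, 18627, 11619 and 16648 in their lists. The upstream sequence from -350 to -101, at chr12:88273-88522 on the plus strand, is shown because it holds an HSE of overlapping 3-unit forms, from -302 to -285, and 3 STREs, all in capitals.
HSP104 upstream: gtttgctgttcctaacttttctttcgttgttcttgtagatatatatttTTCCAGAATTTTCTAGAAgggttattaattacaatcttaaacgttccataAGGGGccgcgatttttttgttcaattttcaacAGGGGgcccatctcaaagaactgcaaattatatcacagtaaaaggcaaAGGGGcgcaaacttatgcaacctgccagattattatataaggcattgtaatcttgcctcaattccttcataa

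The HSE lay inside the peak of spt8Δ at 37 °C with its summit at -325. In WT and spt7 at 37 °C the nearest summits were on the start codon side of it, between 200 and 208 bp away. In spt8Δ at 37 °C a summit beyond the stop codon, at 2843, lay in the annotated replication origin ARS1206.

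HSP78, the mitochondrial member of the same family, was occupied at both temperatures. Its window held 8 summits in WT at 25 °C and 13 at 37 °C, 8 and 7 in spt7, while spt8Δ had 7 at each temperature. The covered share was 23.3, 31.7 and 25.4% at 25 °C and 52.7, 73.0 and 61.0% at 37 °C, so that coverage was higher in the mutants with no further summits. The strongest coding summit in WT at 37 °C, at position 1817, had a fold enrichment of 10.8 and put the gene at place 18 of all genes. The site from 462 to 499 had a summit in the 3 lists at 25 °C and in none at 37 °C. It was the only member site of this kind, 0.625% of the member sites against 0.362% of the sites of all genes. The stretch was still covered at 37 °C, by peaks with summits at 402 in WT, 755 in spt7 and 554 in spt8Δ. The summits thus differed there, while peaks were present at both temperatures. The HSP104 and HSP78 coding regions are 58.8% identical with no shared run above 17 bp. Upstream, summits were listed in WT at 25 °C (-420 and -124) and at 37 °C (-406), in spt7 at 37 °C (-380) and in spt8Δ at 37 °C (-240). Those at -420 and -406 lie within the coding region of the neighbouring gene YAP6.

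The HSP78 upstream sequence from -350 to -101, at chr4:974344-974593 on the minus strand, has the same layout as that of HSP104, an HSE of overlapping 3-unit forms followed by 3 STREs.
HSP78 upstream: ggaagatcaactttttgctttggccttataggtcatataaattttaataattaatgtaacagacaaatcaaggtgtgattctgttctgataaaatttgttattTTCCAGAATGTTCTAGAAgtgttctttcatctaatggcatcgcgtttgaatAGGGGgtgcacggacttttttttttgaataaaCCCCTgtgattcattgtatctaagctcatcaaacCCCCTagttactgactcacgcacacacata

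The peak of 378 bp in spt8Δ at 37 °C had its summit 1 bp from the first of these HSE forms. The other 5 lists had no peak over it.

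HSP60 and HSP10, which encode the 2 parts of the mitochondrial folding chamber, were less covered by peaks at 37 °C than at 25 °C in WT and more covered in both mutants. HSP60 was covered over 41.1% in WT at 25 °C and 30.8% at 37 °C, but over 37.8 and 72.8% in spt7 and 37.8 and 82.7% in spt8Δ. HSP10, with 321 bp of coding sequence, was covered over 42.1 and 15.9% in WT, 69.5 and 79.4% in spt7, and 65.4 and 83.2% in spt8Δ. This difference between strains was not tested. Part of the share of HSP60 in the mutants at 37 °C lay in wide peaks of low fold enrichment. These were peaks of 360 bp (1.54) and 263 bp (1.24) in spt7 and of 922 bp (2.1) in spt8Δ. The HSP10 coding peaks there were 275 bp (2.68) in spt7 and 293 bp (3.45) in spt8Δ. The shares of these 2 genes from strong peaks alone were not computed. HSP60 held the only site present in all 6 lists, a chain of summits from position 1407 to 1488 near the end of its coding region. Their fold enrichments ran from 1.24 to 5.62, and the summit of 1.24, in spt7 at 37 °C, ranked 20170 of 20179. The HSP60 window held 6 and 8 summits in WT, 4 and 6 in spt7, and 8 and 5 in spt8Δ. That of HSP10 held 3 and 1, 3 and 3, and 1 and 3.

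HSP60 had no upstream summit in any list at 25 °C and had at least 1 in each at 37 °C, at -437 and -182 in WT, at -415 in spt7 and at -172 in spt8Δ. The WT summit at -437 was the highest-ranked of these within its list, with a fold enrichment of 5.95 (rank 1527 of 17694), while those at -182, -415 and -172 ranked 5966 of 17694, 6128 of 20179 and 8011 of 17390. HSP10 had an upstream summit between -250 and -213 in 4 lists, WT at 25 °C, spt7 at both temperatures and spt8Δ at 37 °C, and a further one at -456 in the last. The sequences from -350 to -101 hold 1 HSE of 3 units each, in capitals, at chr12:665103-665352 for HSP60 and chr15:370945-371194 for HSP10, both on the minus strand.
HSP60 upstream: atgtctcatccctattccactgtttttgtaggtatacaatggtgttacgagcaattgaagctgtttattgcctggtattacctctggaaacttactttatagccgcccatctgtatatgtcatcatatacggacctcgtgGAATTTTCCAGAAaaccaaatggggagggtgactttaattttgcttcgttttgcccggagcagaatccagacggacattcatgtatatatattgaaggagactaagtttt
HSP10 upstream: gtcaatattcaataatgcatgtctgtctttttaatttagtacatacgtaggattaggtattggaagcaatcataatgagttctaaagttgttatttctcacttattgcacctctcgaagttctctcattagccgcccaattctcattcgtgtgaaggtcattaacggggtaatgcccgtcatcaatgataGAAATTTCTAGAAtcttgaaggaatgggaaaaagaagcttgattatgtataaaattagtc

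The HSE of HSP60, from -210 to -198, lay inside the WT peak at 37 °C with its summit 22 bp away, and 32 bp from the spt8Δ summit at 37 °C. The HSE of HSP10, from -160 to -148, lay in no peak, and in the 4 lists with a summit between -250 and -213 it was 59 to 96 bp away.

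Of the small heat-shock genes, HSP42 had more peaks at 37 °C in every strain and HSP26 did not. The HSP42 window held 2 summits in WT at 25 °C and 6 at 37 °C, 1 and 5 in spt7, and 2 and 4 in spt8Δ. HSP42 and HSP104 were the 2 members with more summits at 37 °C in every strain, against 8.48% of all genes. No member had fewer in every strain, against 4.87% of all genes. The covered share of HSP42 went from 7.36 to 40.1% in WT, from 0 to 43.4% in spt7 and from 4.17 to 38.7% in spt8Δ. An upstream summit was listed in all 6 lists, but in each strain its position differed between the temperatures. At 25 °C it was at -288, -418 and -314 in WT, spt7 and spt8Δ. At 37 °C it was at -443 and -98 in WT, at -225 in spt7 and at -209 in spt8Δ. The last 2 were strong, with fold enrichments of 4.24 (rank 474 of 20179) and 7.04 (rank 120 of 17390), and the latter is the highest-ranked upstream summit of the 10 genes. The summits at -443 in WT at 37 °C and at -418 in spt7 at 25 °C form 1 site and lie in the annotated replication origin ARS425.

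The HSP42 sequence from -350 to -101, at chr4:806271-806520 on the plus strand, is shown because both of these peaks covered its HSE, from -243 to -226, and its 3 STREs. In the other 4 lists the HSE was in no peak.
HSP42 upstream: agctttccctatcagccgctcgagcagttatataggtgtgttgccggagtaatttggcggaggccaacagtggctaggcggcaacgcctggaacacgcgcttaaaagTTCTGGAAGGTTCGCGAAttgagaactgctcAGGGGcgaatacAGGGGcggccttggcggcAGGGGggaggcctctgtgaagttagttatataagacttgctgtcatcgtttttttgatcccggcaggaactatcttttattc

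HSP26 had an upstream summit in every list as well, at -467 in WT, -299 in spt7 and -206 in spt8Δ at 25 °C and at -221, -240 and -271 at 37 °C, where spt8Δ had another at -443. The fold enrichments of these summits, from 1.34 to 4.43, were low to moderate. Its coding region was covered over 7.91% in WT at 25 °C and by no peak at 37 °C, over 11.2 and 17.1% in spt7, and over 0 and 29.0% in spt8Δ. Coding summits were listed for HSP26 in WT and spt7 at 25 °C and in both mutants at 37 °C.

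HSP12 was covered over 29.1% in WT at 25 °C and by no peak whose range reached its coding region at 37 °C. The only summit in its window in that list was at 445, beyond the stop codon. In spt7 the shares were 60.3 and 49.1%, and in spt8Δ 23.6 and 60.6%. The upstream summits of HSP12 were at -233 in WT at 25 °C and at -275 and -207 in spt8Δ at 25 and 37 °C. HSP12 has the most STREs of the group, 5 within 500 bp, and no HSE of either form by these letters. Its sequence from -350 to -101, at chr6:106906-107155 on the plus strand, holds 2 of the STREs.
HSP12 upstream: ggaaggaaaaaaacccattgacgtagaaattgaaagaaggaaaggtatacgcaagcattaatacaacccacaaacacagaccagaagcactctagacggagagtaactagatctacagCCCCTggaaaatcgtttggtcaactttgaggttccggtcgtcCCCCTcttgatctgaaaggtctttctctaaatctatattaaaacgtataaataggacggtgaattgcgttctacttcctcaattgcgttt

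HSP30, which encodes a plasma membrane protein, had no upstream summit in any list and none of the HSE or STRE forms. Its 1 to 3 summits per list all lay in the coding region, and the site from 929 to 984 near the stop codon was found in 5 lists. The strongest was at position 103 in spt8Δ at 25 °C, with a fold enrichment of 9.12 (rank 108 of 16593), which put HSP30 at place 20 of all genes in that list. Its covered share was 5.01, 37.3 and 20.7% at 25 °C and 14.7, 47.8 and 33.8% at 37 °C in WT, spt7 and spt8Δ, higher at 37 °C in each strain by 9.71 to 13.1 points.

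**Figure D3:**
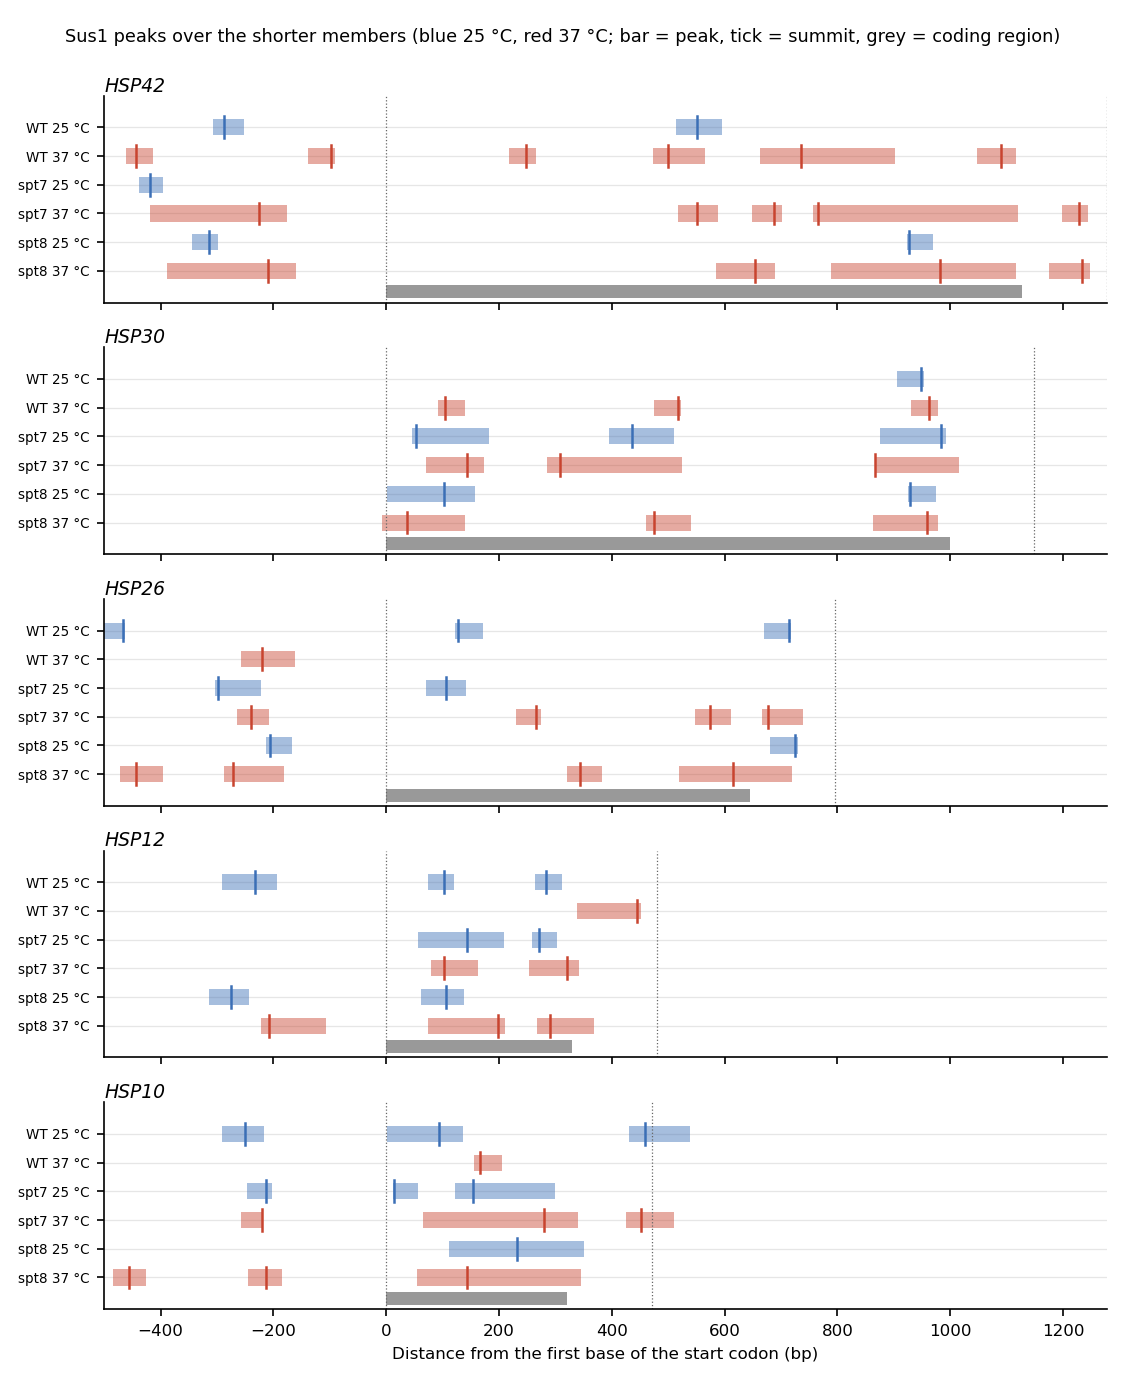
Sus1 peaks over HSP42, HSP30, HSP26, HSP12 and HSP10 in the 6 lists (rows) against the distance from the start codon (x axis, bp), drawn as for the longer genes. The HSP42 coding region has at most 1 summit in the blue rows and is covered over 38.7 to 43.4% in the red rows, HSP30 has no summit before its start codon, and the HSP12 and HSP26 coding regions have no peak in WT at 37 °C.

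The ranks of the strongest coding summits by fold enrichment summarise these differences. The median percentile of the 10 genes among all genes of a list was 72.9, 80.7 and 82.4 at 25 °C and 84.4, 84.8 and 92.5 at 37 °C in WT, spt7 and spt8Δ. HSP82 lay above the percentile 99.9 in every heat-shock list, HSC82 above 99, and HSP104 at 88.32, 98.18 and 99.58. HSP26 and HSP12 in WT at 37 °C, HSP26 in spt8Δ at 25 °C and HSP42 in spt7 at 25 °C had no coding summit and share the lowest rank. Ranks by the solved height of the tallest coding summit can differ in both directions. HSP42 in spt7 at 37 °C stood at percentile 39.94 by fold enrichment and at 97.9 by height. For HSP10 in spt8Δ at 37 °C the percentiles were 82.75 and 67.31.

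**Figure D4:**
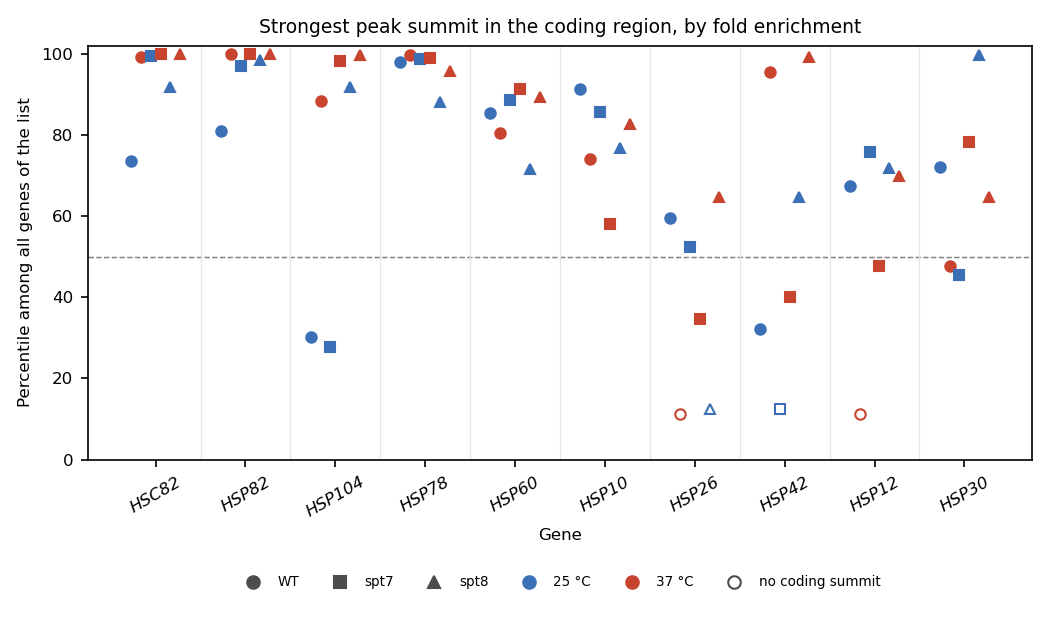
Percentile of each gene among all genes of a list by the fold enrichment of its strongest coding summit (y axis), for the 10 genes (x axis). Circles are WT, squares spt7 and triangles spt8Δ, blue is 25 °C and red 37 °C, and open symbols are genes without a coding summit. The red symbols of HSC82 and HSP82 lie at the top, above 99, and the symbols of HSP26 and HSP12 are spread below.

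Counted over the group, upstream summits were about as common as over all genes at 25 °C and more common at 37 °C. At 25 °C 5 of the 10 genes had one in each strain, against 39.7% of all genes in WT, 38.0% in spt7 and 41.8% in spt8Δ. At 37 °C it was 7 in WT against 44.8%, 7 in spt7 against 40.8% and 9 in spt8Δ against 40.2%. An upstream summit at 37 °C alone was found in WT for HSP104, HSP60, HSC82 and HSP82, 4 of 10 against 22.6%. In spt7 it was found for HSP104, HSP60 and HSP78, 3 of 10 against 18.3%, and in spt8Δ for these 3 and HSP10, 4 of 10 against 17.9%. At 25 °C alone there were HSP12 and HSP10 in WT, 2 of 10 against 17.5%, HSP82 in spt7, 1 of 10 against 15.5%, and none in spt8Δ, against 19.5%. HSP104 and HSP60 were the only members with an upstream summit in every list at 37 °C and in none at 25 °C, a pattern of 1.55% of all genes. It rested on weak peaks and on the length of the region, since HSP104 was lost from it with a q-value under 1e-05 or equal list lengths, HSP60 with 300 bp, and both with 1000 bp, with the 5000 strongest peaks and with a fold enrichment of at least 3. In the last 2 of these settings HSP42 alone showed the pattern. HSP26 and HSP42 had one in all 6 lists, as did 5.8% of all genes.

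An HSE of 3 units, GAANNTTCNNGAA or TTCNNGAANNTTC on either strand, was present within 500 bp of the start codon in HSP104, HSP78, HSP42, HSP60 and HSP10, and in 1.48% of the 6000 complete upstream regions. The 2-unit forms, GAANNTTC or TTCNNGAA, which every 3-unit form contains, were present in 8 of the 10 genes and in 35.2% of all, STREs in 6 and 34.1%, and TATAAA on either strand in 8 and 60.5%. In none of the lists at 25 °C did a peak cover the 3-unit HSE of any of the 5 genes, against 5.62, 4.49 and 16.9% of the 89 genes with such an HSE in WT, spt7 and spt8Δ. At 37 °C a peak covered it in HSP60 in WT, against 13.5%, in HSP42 in spt7, against 19.1%, and in HSP104, HSP78 and HSP42 in spt8Δ, against 31.5%. A peak covered an STRE in all 6 genes that have one in spt8Δ at 37 °C, HSP82, HSP104, HSP78, HSP26, HSP42 and HSP12, against 13.0% of the 2044 genes with an STRE. In spt8Δ at 25 °C it was none of them, against 9.1%. In WT it was 3 at 25 °C, against 9.44%, and 1 at 37 °C, against 11.5%, and in spt7 it was 1 at each temperature, against 8.51 and 11.7%. A gene was counted when any 1 of its STREs lay inside a peak, and these 6 genes hold 2 to 5 STREs each. The 2044 genes were not matched for the number of STREs, so the shares are not a like comparison. The peaks on the members were wider in spt8Δ at 37 °C, with a median of 164 bp against 77 bp at 25 °C.

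**Figure D5:**
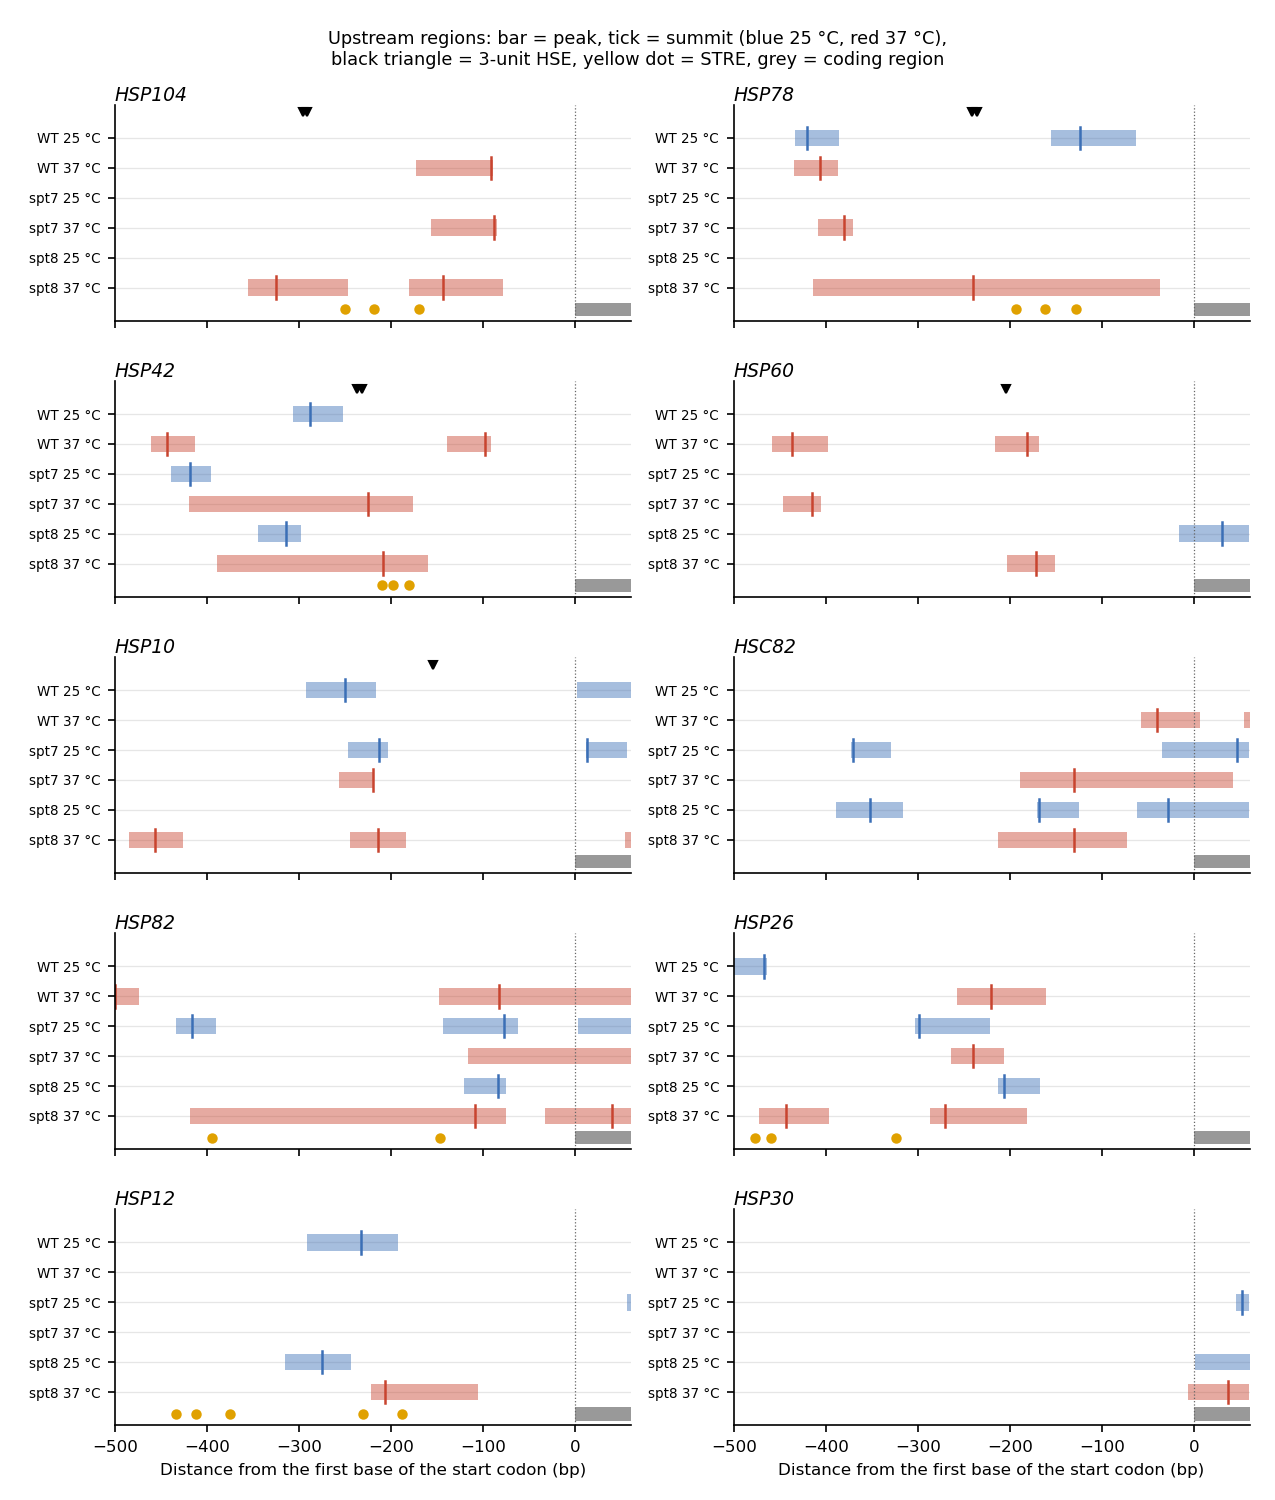
Peaks (bars) and summits (ticks) from 500 bp before to 60 bp after the start codon (x axis, bp) of the 10 genes in the 6 lists (rows), blue at 25 °C and red at 37 °C. Black triangles are 3-unit HSEs, yellow dots are STREs and grey boxes the start of the coding region. No blue bar lies under a triangle, and the red bars of HSP60 in WT, of HSP42 in spt7 and spt8Δ and of HSP78 and HSP104 in spt8Δ do.

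Over the 6 lists, the 10 windows held 288 summits, of which 48 were upstream, 228 in coding regions and 12 beyond the stop codon. The counts per list were 38, 43 and 48 at 25 °C and 60, 49 and 50 at 37 °C in WT, spt7 and spt8Δ. The median number per kb was 2.24, 1.93 and 1.79 at 25 °C and 2.95, 2.4 and 2.4 at 37 °C, while that of all genes lay between 1.24 and 1.48. These summits formed 160 sites. Of these, 81 were found in a single list, or 50.6%, against 64.3% of the sites of all genes, and 15 in at least 4 lists, or 9.38%, against 4.78%. Of the 15, HSC82 and HSP82 held 4 each. The part of the larger number of summits per kb in these shares was not tested. The shares of all genes were computed with a site gap of 30 bp alone.

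The partners of these chaperones were compared from a list of 30 genes that holds Hsp90 co-chaperones, the Hsp70 machine, mitochondrial folding partners and the regulators HSF1, MSN2, MSN4 and YAP1. An upstream summit was found for 11, 8 and 18 of the 30 at 25 °C in WT, spt7 and spt8Δ, against 39.7, 38.0 and 41.8% of all genes. At 37 °C it was found for 16, 20 and 20 of the 30, against 44.8, 40.8 and 40.2%. CNS1, a co-chaperone that joins Hsp90 to Hsp70, had upstream summits in every list at 37 °C and none at 25 °C. This was 1 of the 30, against 1.55% of all genes. SIS1, an Hsp40 that delivers substrates to Hsp70, had one in all 6, which was 1 of the 30 against 5.8% of all genes. The median covered share of the 30 genes was 13.0, 15.4 and 13.6% at 25 °C and 19.4, 26.6 and 20.8% at 37 °C. It was higher at 37 °C in every strain in 13 of the 30, against 13.9% of all genes, and these include 8 of the 9 genes of the cytosolic Hsp70 machine (Hsp70s and the factors that work with them) and 3 of the 12 co-chaperones. The median of the Hsp70 machine alone was 13.7, 13.3 and 13.6% at 25 °C and 27.0, 49.1 and 55.3% at 37 °C in WT, spt7 and spt8Δ. In the other groups the medians lay between 6.62 and 22.6% at 25 °C and between 12.2 and 22.1% at 37 °C. The limit of 20 points in every strain was passed by 2 of the 30, against 0.5% of all genes, namely SSC1, the mitochondrial Hsp70, and CPR6, a prolyl isomerase that binds Hsp90, which are named here after their values were seen. SSC1 was covered over 25.8 to 42.6% at 25 °C and 59.5 to 96.8% at 37 °C in the 3 strains.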

How the data were processed

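Sus1-MYC ChIP-exo was done on 18 tagged libraries, and the authors deposited 1 peak list per strain and temperature. Reads were mapped to sacCer3 with BWA, whose version the submitters' processing notes give as 0.6.2, whereas the study names an earlier version. Which program called the peaks, against which control and from which replicates is not given in the sources used here, though the layout is that of MACS2. The deposited lists hold fold enrichment, a ratio over the background given to each peak, and the authors' -log10 p-value and -log10 q-value.

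Summits were placed on RefSeq genes of the same assembly, annotated without transcription start sites, with position 1 at the first base of the start codon. The share of a coding region inside peaks, summits per window and ranks by fold enrichment within a list were computed. Heights were solved from fold enrichment and p with a pseudocount of 1 and tested on the lists for being whole within 0.05. Genes without a summit share a rank. Member genes and gene lists were chosen with earlier results of these data known. Coverage, its limits and the limit of 8 summits were added after seeing the data. All 10 members are named; of the 30 partner genes (HEP1 matched as ZIM17), the rule names those with an upstream summit in all lists or at 1 temperature alone in every strain, which are CNS1 and SIS1; SSC1 and CPR6 were named after their values were seen, and the regulators only as list members. Alternatives were a q-value under 1e-05, equal list lengths, the 5000 strongest peaks, peak midpoints, fold enrichment of at least 3, other upstream lengths, other site gaps and leaving out the Hsp90 genes. Python 3.11.15, numpy 2.4.6, pandas 2.3.3, scipy 1.17.1, Biopython 1.88 and matplotlib 3.10.9 were used, and the counting was tested on simulated data. The number of reads per library is not known from the lists.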

Additional observations from a re-analysis of the deposited data

Results flagged for a closer look

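In 3 genes the number of summits in the gene window differed between temperatures in opposite directions in WT and in both mutants. From 25 to 37 °C the change was 3 in WT, -4 in spt7 and -6 in spt8Δ for HSC82, and 4, -6 and -6 for HSP82. For HSP26 it was -2 in WT, 2 in spt7 and 2 in spt8Δ. The difference between strains was not tested, since each condition has 1 list. Coverage of HSC82 and HSP82 was higher at 37 °C in all 3 strains, and the peaks of 200 bp or wider on the members numbered 10 in WT, 21 in spt7 and 22 in spt8Δ at 37 °C.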

How the results depend on the processing

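No paired analysis was possible because each condition has 1 list and no test was made. Of 178 values under the alternatives, 114 stayed within 1.5 times the reported value, 63 moved further and 1 changed sign. The cause was not tested. With peak midpoints, or without neighbouring coding sequence, no value moved by more.

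Counts per list are given in the order WT, spt7 and spt8Δ at 25 °C, then at 37 °C. With the 5000 strongest peaks, upstream summits were found for 1, 0 and 2 genes, then 4, 2 and 5, windows held 20, 15 and 25 summits, then 29, 21 and 31, and 4 sites were in at least 4 lists. Genes with an upstream summit at 25 °C alone were 1, 0 and 1, the gene with one in every list at 37 °C and none at 25 °C was 1 (HSP42), the median changes of covered share were -1.72, 7.32 and 22.2 points, and 2 genes passed the limit of 20 points. With a fold enrichment of at least 3, upstream summits were found for 2, 0 and 3 genes at 25 °C and for 2 and 5 in spt7 and spt8Δ at 37 °C, and windows held 25 summits in WT and 16 in spt7 at 25 °C, and 19 in spt7 and 26 in spt8Δ at 37 °C. Genes with one at 25 °C alone were 1, 0 and 2, the gene with one at 37 °C in every strain and none at 25 °C was 1 (HSP42), 6 sites were in at least 4 lists, the median changes were 7.91, 7.32 and 17.8 points, and 1 gene passed the limit. With a q-value under 1e-05, upstream summits were found for 3 genes in spt7 and 3 in spt8Δ at 25 °C, at 25 °C alone for 1 in WT and 2 in spt8Δ, and at 37 °C in every strain and never at 25 °C for 1 gene, and the median change in WT was 9.93 points. With equal list lengths the last pattern held for 1 gene and the median change in spt7 was 21.1 points. An upstream region of 300 bp gave 3 genes in spt7 at 25 °C and 1 gene for that pattern. One of 1000 bp gave 0 genes for it, 2 genes at 37 °C alone in WT and 2 in spt8Δ, and 1 in WT and 0 in spt7 at 25 °C alone. Without HSC82 and HSP82, windows held 25 summits in spt7 and 25 in spt8Δ at 25 °C, and 7 sites were in at least 4 lists, against 5 with a gap of 15 bp and 24 with 60 bp. With a limit of 30 points 3 genes passed. The covered share of HSP104 was higher at 37 °C in every strain under every alternative run on it, by 24.2 points at least.

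The lists give no read totals, and their lowest background ranged from 5.98 to 36.3 reads. The part of this difference in the counts was not tested.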
